A study of Mus musculus with 16 samples.

Results

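The kinesin family was described in bulk RNA-seq of mouse glioblastoma (GBM), the most aggressive class of glioma. Members were the genes whose symbol is Kif followed by a number and at most 1 letter from a to c, together with Kifc1, Kifc2 and Kifc3, and 41 of the 26466 genes of the table carry such a symbol. They were divided by textbook role into 12 mitotic kinesins, 8 neuron-enriched axonal and dendritic kinesins, 9 widely expressed transport kinesins, 6 kinesins of cilia and centrioles and 6 others. All 41 passed the filter on low values (at least 3 libraries with a normalized count no lower than 10), as did 26463 of the 26466 genes.

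The series holds 16 libraries, 1 per transplanted tumour, of 2 lineage-based kinds of mouse GBM named Type 1 and Type 2. Type 1 comprised 5 Control and 3 TAM depleted tumours and Type 2 comprised 4 of each, where TAM stands for tumour-associated macrophages. The means of depletion, the alleles that define each kind, the host strain, its age and the treatment of the controls are unstated in the sources used here. Nothing there says that the tumours of a group had separate origins, and p-values reflect only how much these tumours vary. The design asks how each kind of tumour differed with and without its macrophages, and how the kinds differed from each other. The 12 macrophage and microglia markers summed to between 2920 and 8494 normalized counts in Type 2 Control and between 1584 and 3376 in Type 2 TAM depleted tumours. In Type 1 the same sum lay between 1544 and 3073 in controls and between 1472 and 2955 in depleted tumours. The groups overlapped in both kinds, and Type 2 TAM depleted 4 (3376) lay above Type 2 Control 1 (2920) and Control 3 (3248). Macrophage transcripts were thus not absent from any depleted group.

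Depth ran from 4.21 to 18.3 M reads. The libraries also fell into sets by reads in 997 olfactory and vomeronasal receptor genes, known from sensory neurons of the nose: 9 libraries had 2717 to 8650 such reads per M reads and 7 had 97.0 to 811. All 5 Type 1 Control libraries were in the high set and all 3 Type 1 TAM depleted libraries in the low set, so that receptor background and depletion cannot be told apart in Type 1. In Type 2, Control 1 and 3 and TAM depleted 3 and 4 were in the high set and the other 4 in the low set, and Type 2 depletion was also computed within each set, the control comparison within the high set and the TAM depleted comparison within the low set. These are bulk samples, in which fewer cells of a type and less RNA per cell cannot be told apart.

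Kinesins are motor proteins that walk along microtubules by hydrolysing ATP. Mitotic kinesins are made by dividing cells, where they push spindle poles apart, move and align chromosomes and build the midzone on which the cell cleaves. Axonal and dendritic kinesins carry vesicles, organelles, channels and filament proteins along neurites, and in brain tissue their transcripts come largely from neurons, while the widely expressed transport kinesins do similar work in most cell types.

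The promoters of mitotic and neuron-enriched kinesins, read without any expression value, held different motifs. Of the 41 kinesins, 31 had a promoter in the RefSeq table (build GRCm38.p6; 250 bases before to 50 after the start listed first for each gene), among them 11 mitotic and 5 neuron-enriched members. The stretches below run from base -120 to base -11 relative to the RefSeq start, 5′ to 3′ on the strand of the gene, and are shown for these motifs. Capitals mark the cell-cycle genes homology region motif (CHR, TTTGAA or its reverse complement TTCAAA) and the CCAAT box (CCAAT or ATTGG). The mitotic examples are Kif11 (chr19:37376262-37376371, plus strand), Kif15 (chr9:122950961-122951070, plus strand) and Kif18b (chr11:102925135-102925244, minus strand), and the neuron-enriched examples are Kif5c (chr2:49619166-49619275, plus strand) and Kif3c (chr12:3365012-3365121, plus strand).
Kif11: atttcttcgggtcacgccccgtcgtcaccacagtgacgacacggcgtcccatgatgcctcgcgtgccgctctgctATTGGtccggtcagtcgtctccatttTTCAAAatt
Kif15: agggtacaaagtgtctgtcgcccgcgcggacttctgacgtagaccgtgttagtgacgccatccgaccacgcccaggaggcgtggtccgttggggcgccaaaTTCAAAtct
Kif18b: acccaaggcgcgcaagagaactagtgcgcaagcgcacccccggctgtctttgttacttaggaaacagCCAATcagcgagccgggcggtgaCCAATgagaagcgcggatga
Kif5c: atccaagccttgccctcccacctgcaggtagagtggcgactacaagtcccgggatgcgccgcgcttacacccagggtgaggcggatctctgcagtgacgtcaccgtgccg
Kif3c: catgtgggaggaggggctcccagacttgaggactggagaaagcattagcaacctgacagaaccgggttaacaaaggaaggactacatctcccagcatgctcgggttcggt

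The CHR motif, on either strand, was present in 10 of the 11 mitotic promoters (90.9%), in 0 of the 5 neuron-enriched promoters, in 0 of 6 promoters of the widely expressed transport class and in 18.1% of the 27025 promoters of the table. In Kif11 and Kif15 it starts at base -19, and in Kif18b it lies at base 4, past the stretch printed above. The CCAAT box was found in 7 of 11 mitotic promoters and 0 of 5 neuron-enriched promoters, against 37.9% of all promoters. It was not particular to the mitotic class, with 3 of 6 widely expressed transport promoters and 3 of 5 cilium and centriole promoters. The GC box (GGGCGG or CCGCCC) was more evenly spread, with 6 of 11 mitotic, 3 of 5 neuron-enriched and 6 of 6 widely expressed transport promoters against 35.9% of all promoters. Median GC content was 60.7% in mitotic, 67.0% in neuron-enriched and 52.7% in all promoters. In the kinesins, 1 pair of different motifs overlapped. Some of these starts differ from those of GENCODE vM21, and a match is a description of the letters, not of a bound site.

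Levels below are normalized counts, rebuilt from the log2 values of the authors, and where the levels of genes are set against each other they are per kilobase of exon. Of the neuron-enriched class, Kif1a and Kif5c stood at 391 ± 105 and 336 ± 74.9 normalized counts per kb in Type 1 Control (mean ± SD, n = 5) and at 202 ± 148 and 74.9 ± 47.7 in Type 2 Control (n = 4). The mitotic Kif11 stood at 69.5 ± 19.4 in Type 1 Control and at 87.3 ± 65.2 in Type 2 Control, close to the Type 2 level of Kif5c. In Type 2 TAM depleted tumours the per kb means were 1118 ± 850 for Kif1a, 622 ± 463 for Kif5c and 80.2 ± 65.9 for Kif11 (n = 4).

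**Figure D1:**
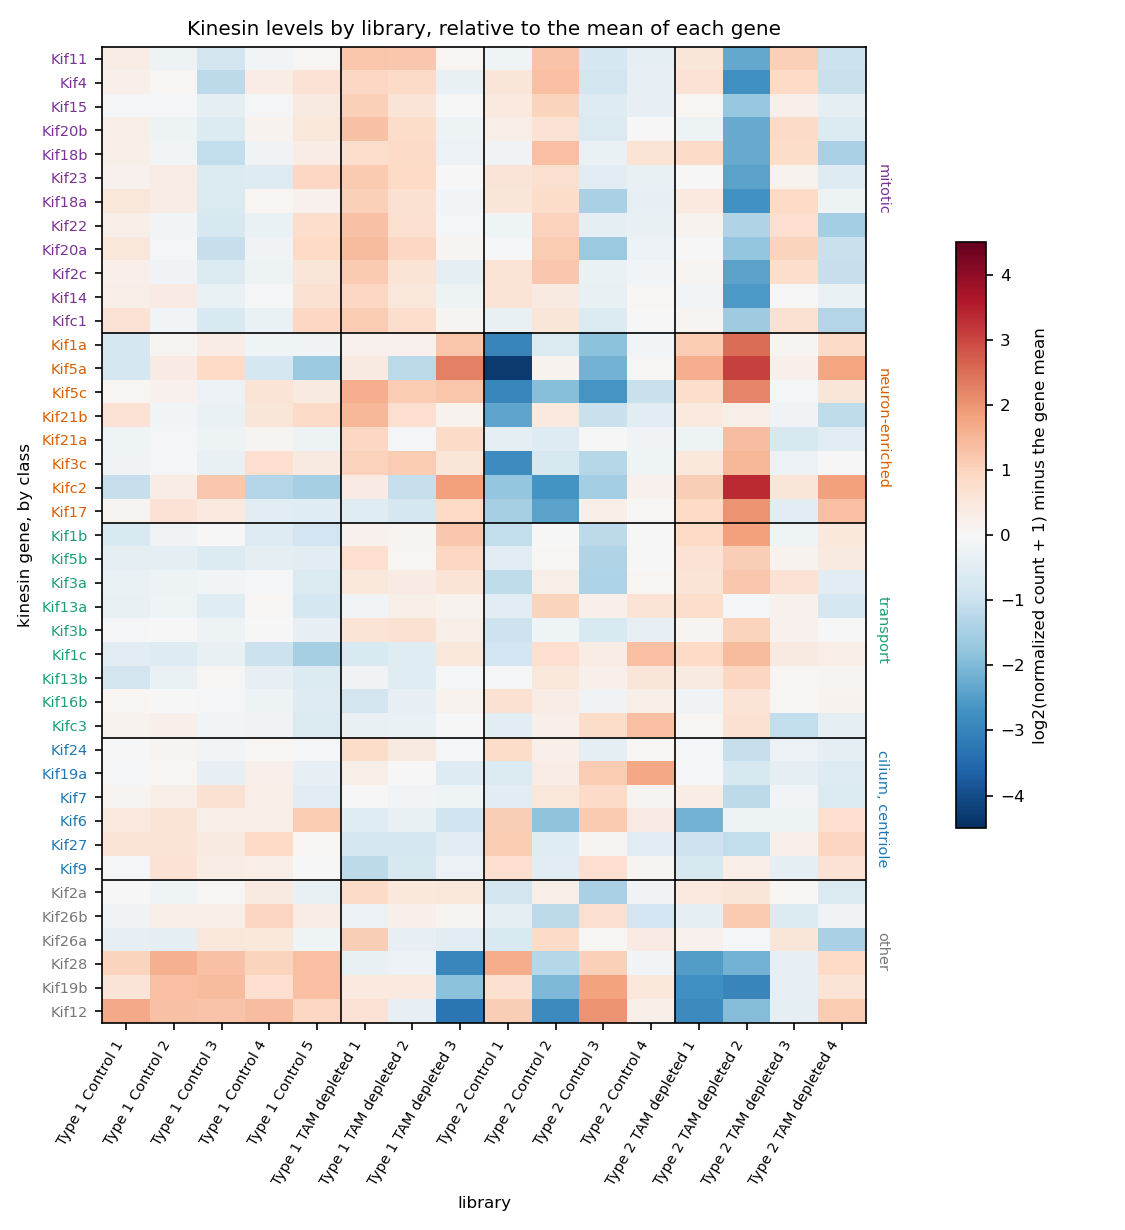
Level of each of the 41 kinesins (vertical axis, by class) in each of the 16 libraries (horizontal axis, by group), as log2(normalized count + 1) minus the mean of that gene. Type 2 TAM depleted 2 is the lowest library for 11 of 12 mitotic kinesins and the highest for 7 of 8 neuron-enriched kinesins.

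The heavy chains of kinesin-1, the motor that carries vesicles, mitochondria and neurofilament proteins down axons, are Kif5a, Kif5b and Kif5c. Kif5c, a neuron-enriched heavy chain, had normalized counts of 265, 536, 323 and 1015 in Type 2 Control 1 to 4 and of 3505, 9311, 1962 and 2985 in Type 2 TAM depleted 1 to 4. Every depleted tumour of Type 2 was above every control tumour of that kind. In Type 1, Kif5c was at 2162, 2308, 1708, 3107 and 2718 in the 5 controls and at 6389, 4499 and 4802 in the 3 depleted tumours. These groups did not overlap either, and all Type 2 Control tumours lay below all other tumours of the series.

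Kif5c rose in Type 2 depletion by 3.00 on the log2(normalized count + 1) scale (SE 0.46, adjusted p = 0.00917, limma-trend, Benjamini-Hochberg adjustment across every gene tested), with 4 of 4 depleted tumours above every control. In Type 1 depletion its difference was 1.14 (SE 0.47, adjusted p = 0.128), which did not pass. The 2 responses differed by 1.86 (SE 0.66, adjusted p = 0.470), so a difference between the kinds of tumour in how Kif5c responded was not shown. With the receptor read sets as a block, whose effect in Type 1 is taken from the Type 2 tumours, the responses of Kif5c differed by 3.15 (adjusted p = 0.0245) and its Type 1 difference was -0.15. Neither receptor set holds both control and depleted libraries of Type 1, so the block values cannot be checked within Type 1. Among control tumours Kif5c was lower in Type 2, with a log2 difference (Type 2 minus Type 1) of -2.34 (SE 0.43, adjusted p = 0.00543), and among TAM depleted tumours that difference was -0.47 (SE 0.49, adjusted p = 0.713). The Type 2 comparisons share their control tumours, and the low Type 2 Control values enter both called differences.

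Kif5a, the other neuron-enriched heavy chain of kinesin-1, varied more from tumour to tumour. It was at 92.9, 2071, 426 and 1930 in Type 2 Control and at 5730, 15782, 2146 and 6276 in Type 2 TAM depleted tumours. Type 1 controls held 1078, 2370, 3491, 1107 and 586, and Type 1 TAM depleted tumours 2442, 790 and 8822. The Type 2 groups did not overlap, by a narrow gap between Control 2 and TAM depleted 3, whereas the Type 1 groups did. The Type 2 depletion difference of Kif5a was 3.22 (SE 0.93, adjusted p = 0.0647, limma-trend), larger than that of Kif5c but not past the adjusted threshold.

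Kif5b, the heavy chain made in nearly all cells, was at 686, 1018, 390 and 1007 in Type 2 Control and at 1543, 2141, 1099 and 1300 in Type 2 TAM depleted tumours. In Type 1 it was at 749, 748, 647, 755 and 702 in controls and at 1674, 1052 and 1882 in depleted tumours. Depleted tumours lay above controls without overlap in both kinds. The Type 2 difference of 1.03 (SE 0.32, adjusted p = 0.0848, limma-trend) did not pass.

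Kif1a, the kinesin-3 motor of synaptic vesicle precursors and dense core vesicles, also rose in Type 2. It was at 483, 2437, 1074 and 3554 in controls and at 8518.8, 22021, 4239 and 6946 in depleted tumours of Type 2, again without overlap. In Type 1 the controls held 2264, 4196, 4882, 3419 and 3493 and the depleted tumours 4443, 4435 and 9105, which overlapped. The log2 difference in Type 2 depletion was 2.57 (SE 0.58, adjusted p = 0.0256, limma-trend), against 0.67 (SE 0.60, adjusted p = 0.425) in Type 1, and the difference of these responses was 1.89 (SE 0.83, adjusted p = 0.491). With the receptor read block the Type 1 difference of Kif1a was -1.01 and the difference of responses passed (adjusted p = 0.0270). Between control tumours Kif1a differed by -1.28 (SE 0.55, adjusted p = 0.296) and between TAM depleted tumours by 0.61 (SE 0.63, adjusted p = 0.707).

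Its broadly expressed relative Kif1b, which carries mitochondria and vesicles, was at 1591, 3440, 1529 and 3490 in Type 2 Control and at 6430, 12410, 2996 and 4765 in Type 2 TAM depleted tumours. TAM depleted 3 fell below Control 2 and 4, so these groups overlapped. Type 1 values were 2147, 3076, 3354, 2310 and 1875 in controls and 3958, 3773 and 7952 in depleted tumours, without overlap. The Type 2 depletion difference of Kif1b was 1.32 (SE 0.44, adjusted p = 0.112, limma-trend).

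Kifc2 belongs to the minus-end directed kinesin-14 family and is found mainly in neurons. Its normalized counts were 111, 56.8, 130 and 433 in Type 2 Control and 815, 3814, 551 and 1355 in Type 2 TAM depleted tumours, with no overlap. Type 1 controls were at 183, 471, 880, 149 and 134 and Type 1 TAM depleted tumours at 491, 184 and 1342, which overlapped widely. In Type 2 depletion Kifc2 rose by 3.16 (SE 0.76, adjusted p = 0.0331, limma-trend). The Type 1 difference was 0.86 (SE 0.79, adjusted p = 0.441), and the responses differed by 2.30 (SE 1.10, adjusted p = 0.497). Type 2 and Type 1 differed by -0.98 (SE 0.73, adjusted p = 0.575) in controls and by 1.32 (SE 0.83, adjusted p = 0.538) in TAM depleted tumours. Kifc2 overlaps Cyhr1 in the annotation, and since the library kit does not mark strand, reads of these neighbours cannot be told apart where they overlap.

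**Figure D2:**
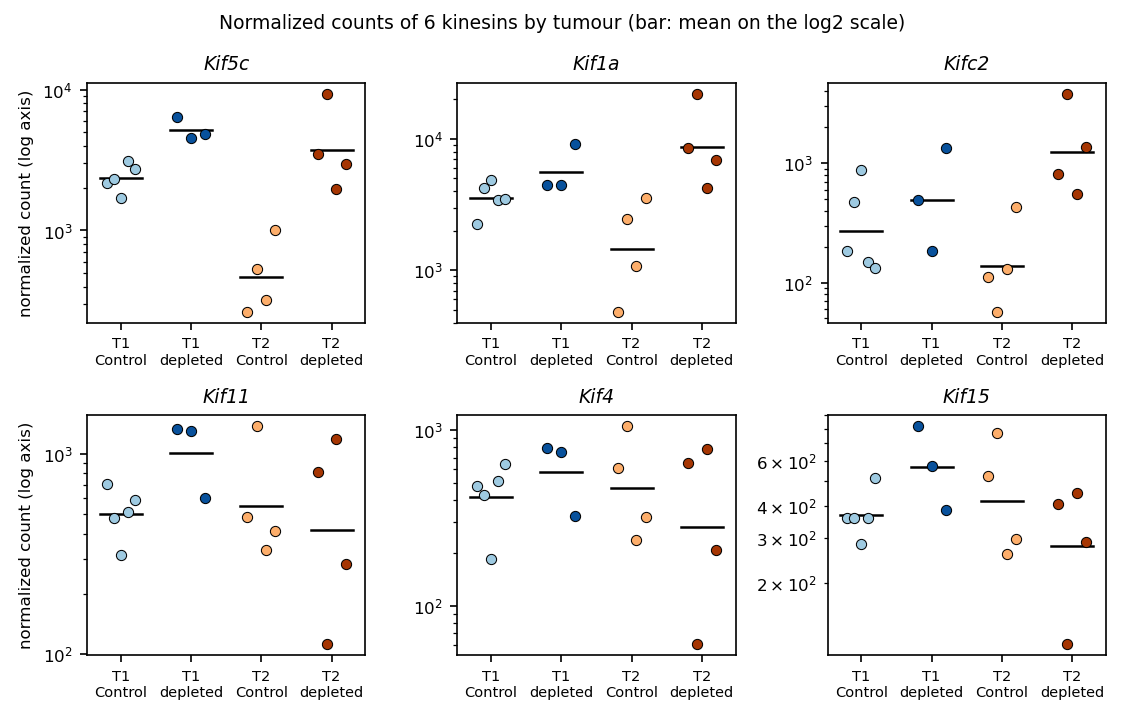
Normalized counts (log axis) of 6 kinesins in single tumours of the 4 groups (T1, Type 1; T2, Type 2), with a bar at the mean on the log2 scale. Kif5c runs from 265 to 1015 in Type 2 Control and from 1962 to 9311 in Type 2 TAM depleted tumours, whereas Kif11 overlaps between these groups.

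Kif3a and Kif3b are the motor subunits that pair, with the adaptor Kifap3, as kinesin-2 and serve both cilia and transport, and Kif3c is their neuron-enriched relative. Kif3a was at 279, 742, 235 and 658 in Type 2 Control and at 931, 1427, 965 and 439 in Type 2 TAM depleted tumours. In Type 1 it was at 502, 517, 557, 577 and 392 in controls and at 878, 793 and 948 in depleted tumours. Depleted tumour 4 of Type 2 lay within the control range, while the Type 1 groups did not overlap, and the Type 2 depletion difference was 1.03 (SE 0.39, adjusted p = 0.156, limma-trend). The adaptor Kifap3, no kinesin by symbol, rose in Type 2 depletion by 1.59 (adjusted p = 0.0437).

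Over the family, 3 of 41 kinesins passed in Type 2 depletion, Kif5c, Kif1a and Kifc2, all higher in depleted tumours and all in the neuron-enriched class. The share over all genes tested was 3.61%, and 10 kinesins had positive and 1 a negative difference at an unadjusted p under 0.05, against 18.0% of all genes. Limma-voom on the reads recovered from the deposited values passed the same 3. The count rested on single tumours. It was 1 (Kif5c) without Control 3, TAM depleted 1 or TAM depleted 2, where 100, 302 and 285 genes passed in all. It was 5 without Control 4 or TAM depleted 3, where 929 and 974 genes passed, against 956 with every tumour. With the receptor read sets as a block it was 9, where 2635 of 26463 genes passed. In the low set alone it was 0, where 0 of 26463 genes passed. In Type 2, 6 of 41 kinesins (Kif5c, Kif1a, Kifc2, Kif5a, Kif5b and Kif3b) were higher in every depleted tumour than in every control, against 3.86% of all genes, and 0 of 41 were lower in that way, against 3.39%.

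The classes lay apart in their medians. All 8 neuron-enriched kinesins had positive Type 2 depletion differences, from 0.28 for Kif21a to 3.22 for Kif5a, with a median of 2.20, although under quantile scaling 7 of 8 were positive. The median over all genes tested was -0.21. The 9 widely expressed transport kinesins had a median of 0.37, with 6 positive and 3 negative values and 0 called. Of the neuron-enriched members not yet given, Kif3c, Kif17 and Kif21b ranged from 0.71 to 1.84 and did not pass.

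In the cell-division class, by contrast, no kinesin passed in Type 2 depletion. The 12 mitotic kinesins had differences between -0.98 and -0.21, with a median of -0.60 and 0 of 12 positive, and with 0 of 12 at an unadjusted p under 0.05 by limma-trend or limma-voom. Over all genes 18.0% had an unadjusted p under 0.05 by limma-trend. Adjusted p-values of the 12 mitotic kinesins ran from 0.306 to 0.868. The size of the median and the shared sign of all 12 depended on Type 2 TAM depleted 2. Without that tumour the median was -0.12, still negative, and 4 of 12 were positive.

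Kif11 builds the bipolar spindle by sliding antiparallel microtubules apart. It was at 486, 1375, 332 and 412 in Type 2 Control and at 813, 112, 1184 and 284 in Type 2 TAM depleted tumours. The highest control, number 2, and the lowest depleted tumour, also number 2, set the range, and the groups overlapped. In Type 1 it was at 703, 477, 312, 511 and 590 in controls and at 1328, 1296 and 602 in depleted tumours. The Kif11 difference was -0.39 (SE 0.60, adjusted p = 0.751, limma-trend) in Type 2 depletion and 1.01 (SE 0.62, adjusted p = 0.263) in Type 1 depletion. The 2 responses of Kif11 differed by -1.40 (SE 0.87, adjusted p = 0.526), and Type 2 and Type 1 TAM depleted tumours by -1.27 (SE 0.65, adjusted p = 0.454).

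Kif4, a chromosome-bound motor that shapes condensed chromosomes and the spindle midzone, was at 611, 1057, 236 and 320 in Type 2 Control and at 648, 60.4, 781 and 207 in Type 2 TAM depleted tumours. Type 1 controls were at 483, 429, 184, 517 and 644 and Type 1 depleted tumours at 795, 749 and 325. Both pairs of groups overlapped. Its Type 2 depletion difference was -0.73 (SE 0.68, adjusted p = 0.599, limma-trend).

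Kif15, which backs up Kif11 in spindle assembly, was at 522, 767, 259 and 296 in Type 2 Control and at 407, 116, 449 and 290 in Type 2 TAM depleted tumours. Type 1 values were 359, 360, 284, 360 and 514 in controls and 818, 574 and 384 in depleted tumours. The same depleted tumour of Type 2, number 2, was again the lowest of all 16. The Type 2 depletion difference was -0.58 (SE 0.42, adjusted p = 0.501, limma-trend).

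The remaining mitotic members, among them Kif23 of the central spindle, Kif2c, which depolymerises microtubules at centromeres, Kif20a, Kif20b, Kif14, Kif18a, Kif18b and Kif22, held between 37.7 (Kif14) and 842 (Kif20b) normalized counts in single tumours. Type 2 TAM depleted 2 was the lowest library for all of them but Kif22, whose lowest value was 93.4 in Type 2 TAM depleted 4. Kifc1, the clustering motor of spindle poles, has the near-identical copy Kifc5b, so its values of 61.0 to 411 are uncertain. Type 1 TAM depleted 1 was the highest library for 8 of the 12 mitotic members and Type 2 Control 2 for the other 4.

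**Figure D3:**
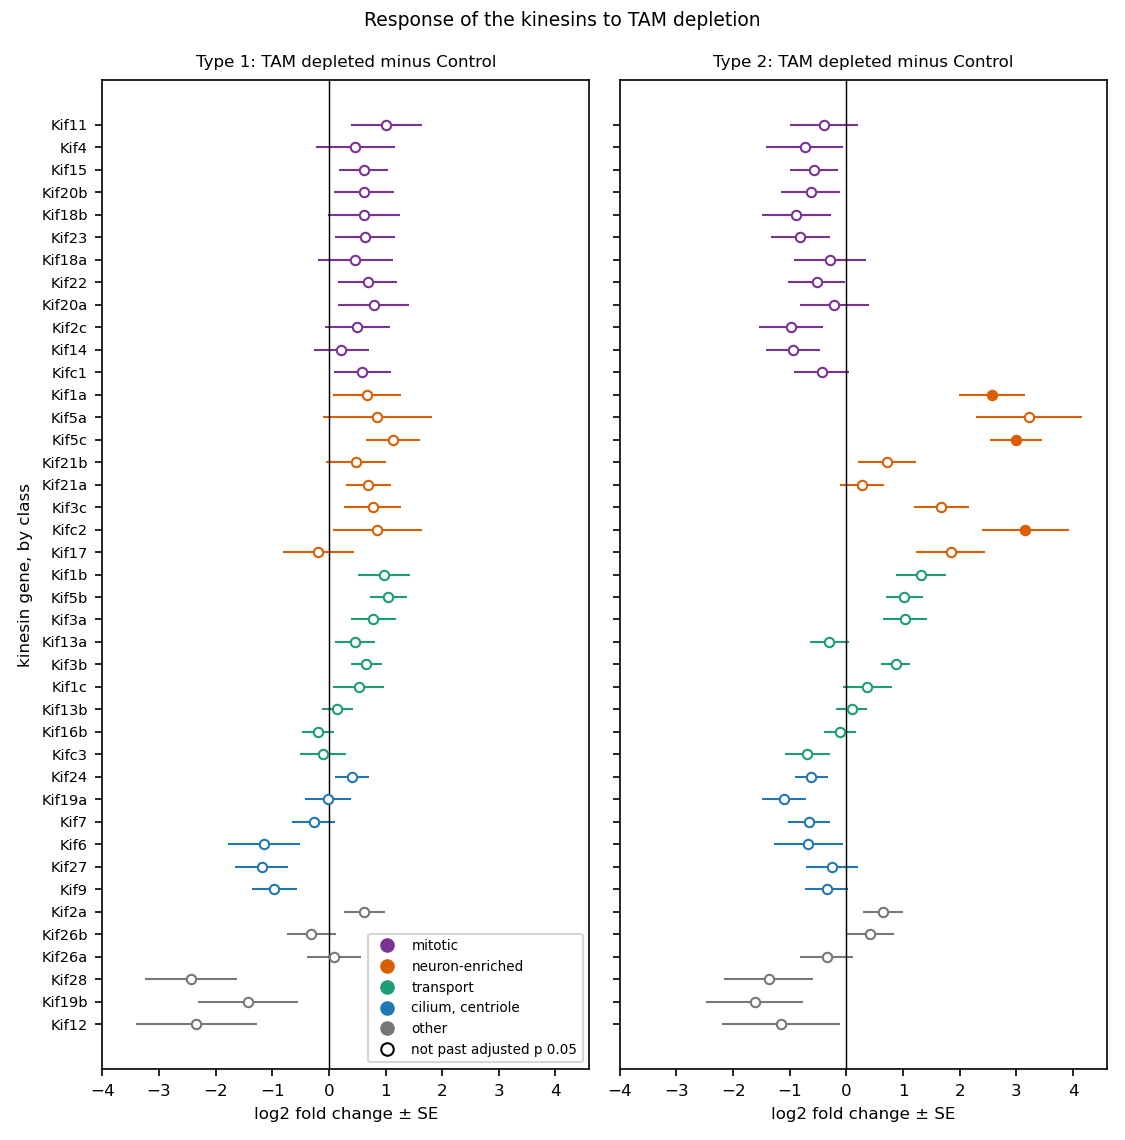
Log2 fold change (TAM depleted minus Control) ± SE of each kinesin in Type 1 and in Type 2, coloured by class, with filled points past an adjusted p of 0.05. Filled points are Kif5c, Kif1a and Kifc2 in Type 2, and all 12 mitotic kinesins lie right of 0 in Type 1 and left of 0 in Type 2.

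Type 1 depletion gave 0 of 41 kinesins past the threshold by limma-trend and by limma-voom, and 0.0% of all genes tested. At an unadjusted p under 0.05, 4 kinesins were higher (Kif5b, Kif5c, Kif3b and Kif1b) and 4 lower (Kif9, Kif12, Kif27 and Kif28), against 30.3% of all genes. Mitotic kinesins had a median difference of 0.62 with 12 of 12 positive (9 of 12 under quantile and 11 of 12 under upper quartile scaling), neuron-enriched kinesins of 0.74 with 7 of 8 positive (-0.50 with 2 of 8 positive under the receptor read block), and all genes of -0.06. Groups did not overlap for 6 kinesins that were higher (10.5% of all genes) and 6 that were lower (28.6%). Here all the depleted libraries were in the low receptor set and all the controls in the high set.

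The difference between the responses of the 2 kinds of tumour was tested for every kinesin, and 0 of 41 passed by limma-trend, as did 0.0% of all genes. At an unadjusted p under 0.05 there were 3 higher (Kif1a, Kif5c and Kif17) and 1 lower (Kif24), against 10.1% of all genes, and limma-voom also called 0. With the receptor read block 2 kinesins passed, Kif5c and Kif1a, both with the larger value in Type 2, and 166 genes in all. The median of the difference was -1.20 over the mitotic kinesins, with 0 of 12 positive (-0.73 with 1 of 12 positive without Type 2 TAM depleted 2), and 1.88 over the neuron-enriched kinesins, with 7 of 8 positive. For all genes it was 0.16.

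Between control tumours, 1 of 41 kinesins passed, Kif5c, lower in Type 2, against 3.09% of all genes (819 of 26463). Without Type 2 Control 1 there were 2, with Kif1c added as higher, and 1141 genes in all. With the receptor read block 5 kinesins passed, and 1226 genes in all. In the high set alone 5 kinesins passed, and 1057 genes in all. All 5 were lower in Type 2 in each of these settings. At an unadjusted p under 0.05, 3 were higher (Kif1c, Kif13a and Kif13b) and 4 lower (Kif1a, Kif3c, Kif5c and Kif21b), against 13.7% of all genes. It was also the only kinesin whose control groups did not overlap, as 1 of 41 lower (1.93% of all genes) and 0 higher (5.03%). All 8 neuron-enriched kinesins had negative differences with a median of -1.17, against -0.23 over all genes. The mitotic median was 0.05, with 9 of 12 positive, and 5 of 12 were positive under quantile or upper quartile scaling.

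Between TAM depleted tumours, 0 of 41 kinesins passed, against 0.185% of all genes, and 9 had an unadjusted p under 0.05 by limma-trend, against 12.1%. The mitotic class lay lower in Type 2, with a median of -1.16, a range of -1.40 to -0.96 and 0 of 12 positive. Without Type 2 TAM depleted 2 that median was -0.61, still with 0 of 12 positive. The neuron-enriched median was 0.07, with 4 positive and 4 negative, where all genes had a median of 0.11. Groups did not overlap for Kif24, lower in Type 2 (5.77% of all genes), and for the widely expressed Kif13b, higher in Type 2 (3.3%).

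Single libraries showed how far the classes moved apart. The summed level per kb of neuron-enriched over mitotic kinesins was 0.466, 0.779, 1.48 and 2.20 in Type 2 Control 1 to 4, and 3.71, 54.8, 1.40 and 8.45 in Type 2 TAM depleted 1 to 4. In Type 1 the ratio was 1.60, 2.75, 5.18, 2.72 and 1.52 in controls and 2.05, 1.69 and 6.78 in depleted tumours. The ratio of 54.8 in Type 2 TAM depleted 2 came from a mitotic sum of 145 per kb, the lowest of all libraries, and a neuron-enriched sum of 7948 per kb, the highest. Type 2 TAM depleted 3 lay inside the control range. Only Type 2 Control 1 and 2 had a ratio below 1, that is, more mitotic than neuron-enriched signal per kb.

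**Figure D4:**
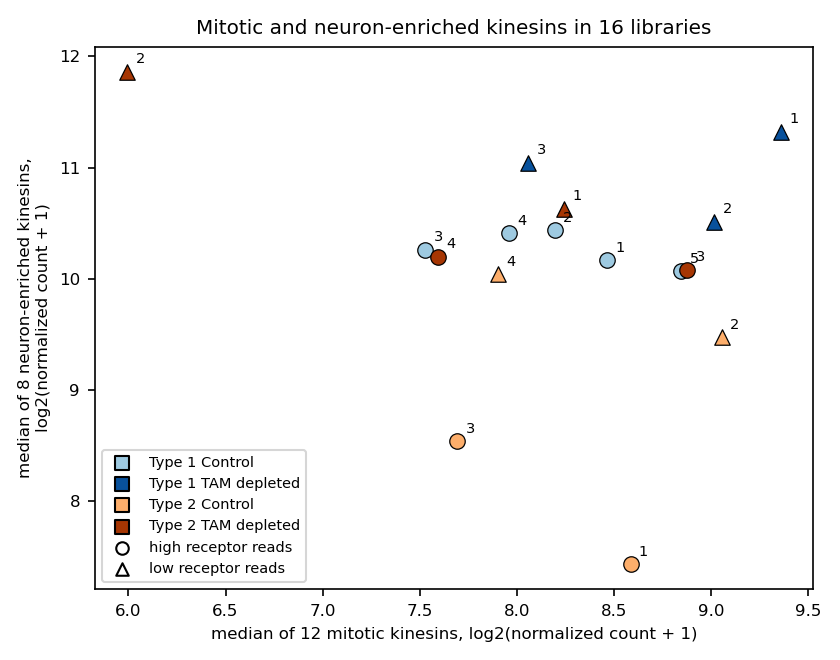
Median level of the 8 neuron-enriched kinesins (vertical) against that of the 12 mitotic kinesins (horizontal), both as log2(normalized count + 1), in 16 libraries with their replicate numbers, coloured by group and shaped by receptor reads; values are not scaled by gene length, so the axes are not to be compared with each other. Type 2 Control 1 is lowest on the vertical axis at 7.43, and Type 2 TAM depleted 2 stands alone at 5.99 on the horizontal and 11.86 on the vertical axis.

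Within the receptor read sets of Type 2, the neuron-enriched medians lay close together and the mitotic medians did not, a difference between sets that was not tested. The neuron-enriched median was 2.38 in the high set (Control 1 and 3, TAM depleted 3 and 4) and 2.23 in the low set (Control 2 and 4, TAM depleted 1 and 2). Kif5c differed by 3.04 in the high set (SE 0.40, adjusted p = 0.00215) and by 2.95 in the low set (SE 0.53, adjusted p = 0.293), Kif1a by 2.91 and 2.22, and Kifc2 by 2.84 and 3.48, by limma-trend. The mitotic median was 0.03 in the high set, with 6 of 12 positive, and -1.37 in the low set, with 0 of 12 positive. In the low set the mitotic sums were 7706 and 3340 normalized counts in Control 2 and 4. They were 4623 and 838 in TAM depleted 1 and 2, so the low-set median rests on few tumours with widely spread values.

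Genes that work with the transport motors were also counted. Of 16 partners of transport kinesins, 8 passed as higher in Type 2 depletion and 0 as lower, where 3.61% of all genes passed. Differences were positive for 15 and negative for 1, with a median of 1.46 against -0.21 over all genes. The 3 with the smallest p were Mapk8ip1, the JIP1 scaffold that links kinesin-1 to its cargo, at 2.51 (adjusted p = 0.0107), Rab3a, a synaptic vesicle GTPase, at 3.03 (adjusted p = 0.0107), and Mapk8ip2 at 2.42 (adjusted p = 0.0176), all by limma-trend. The kinesin light chains Klc1 and Klc2 were among the 8. Between controls, 4 of the 16 partners passed as lower in Type 2: Rab3a, Mapk8ip1, Mapk8ip2 and Fez1, where 3.09% of all genes passed. There 13 differences were negative and 3 positive. Of 12 dynein and dynactin genes, which encode the motor of the opposite direction, 0 passed in Type 2 depletion, and their median was 0.85. An unadjusted p under 0.05 by limma-trend was reached by 6 of these 12, against 18.0% of all genes.

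Partners of the mitotic motors gave 0 of 15 past the threshold in Type 2 depletion, with a median of -0.69 and 1 at an unadjusted p under 0.05 (Cit, the midbody kinase, at 1.14). Proliferation markers gave 0 of 10, with a median of -0.80 and 0 at an unadjusted p under 0.05. Over all genes 18.0% had an unadjusted p under 0.05 there and 3.61% passed, by limma-trend. Their sum ran from 6123 to 21977 normalized counts in Type 2 Control and from 2153 to 16418 in Type 2 TAM depleted tumours, and these ranges overlapped as those of the mitotic kinesins did (2369 to 7706 and 838 to 6300).

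Neuron markers had differences of the same sign as the neuron-enriched kinesins in Type 2 depletion and between controls. In Type 2 depletion 12 of 12 were positive and 7 of 12 passed, where 3.61% of all genes passed. The median of the 12 was 3.60, against -0.21 over all genes, with Rbfox3 at 3.30, Syp at 3.47 and Snap25 at 4.58 (each adjusted p = 0.00932, limma-trend). The sum of the 12 markers was 998 to 8153 in Type 2 Control and 9246 to 69308 in Type 2 TAM depleted tumours, without overlap, and none of the 12 was at 0 in any library. In Type 2 Control 1 to 4 the marker sum was 1444, 998, 1035 and 8153, and the neuron-enriched kinesin sum was 2424, 8617, 4516 and 9988. The 2 sums thus did not rank these tumours in the same order. In Type 1 the marker sum was 5199 to 22099 in controls and 7986 to 27263 in depleted tumours, with a median difference of -0.03 where the neuron-enriched kinesins had 0.74. Between TAM depleted tumours the marker median was 1.84, with 10 of 12 positive and 0 called, where the kinesins had 0.07. Between controls 4 of 12 neuron markers (Rbfox3, Syp, Stmn2 and Snap25) passed as lower in Type 2, where 3.09% of all genes passed. The median there was -2.32, with 0 of 12 positive. The part of the neuron markers in the differences of Kif5c, Kif1a and Kifc2 was not tested.

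Lists of other cell types lay on either side of the median of all genes in Type 2 depletion (-0.21), where 3.61% of all genes passed. Astrocyte markers had a median of 1.24 with 7 of 8 positive and 1 called higher (Aqp4 at 2.04), and mature oligodendrocyte markers a median of 1.32 with 8 of 8 positive and 0 called. Both lists lay on the same side as the neuron-enriched kinesins, and their part in the kinesin differences was not tested. Macrophage and microglia markers had a median of -1.12 with 0 of 12 positive and 1 called lower (Adgre1 at -2.10, adjusted p = 0.0198, limma-trend). Oligodendrocyte precursor markers went both ways, with 2 positive and 4 negative, a median of -0.78 and 1 of 6 called lower (Sox10 at -2.01). Endothelial markers had a median of -0.30 with 2 positive, 4 negative and 0 of 6 called.

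Kinesins of cilia and centrioles passed in no comparison. Kif19a, which trims cilia, was at 92.9, 177, 312 and 474 in Type 2 Control and at 133, 84.9, 106 and 95.1 in Type 2 TAM depleted tumours, against 134, 152, 109, 167 and 110 in Type 1 Control and 168, 143 and 94.5 in Type 1 TAM depleted tumours. Its highest values were in Type 2 Control 3 and 4, but Control 1 lay within the depleted range. The Kif19a difference in Type 2 depletion was -1.10 (SE 0.39, adjusted p = 0.138, limma-trend).

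Kif24, a regulator of centriole capping, was at 393, 257, 162 and 228 in Type 2 Control, at 208, 108, 183 and 162 in Type 2 TAM depleted, at 217, 240, 205, 234 and 211 in Type 1 Control and at 392, 297 and 215 in Type 1 TAM depleted tumours. All Type 2 TAM depleted tumours lay below all Type 1 TAM depleted tumours for this gene. Its Type 2 depletion difference was -0.62 (SE 0.29, adjusted p = 0.280, limma-trend).

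Kif7, a Hedgehog pathway regulator at the ciliary tip, was at 50.04, 102, 134 and 79.9 in Type 2 Control, at 90.4, 31.7, 65.8 and 45.9 in Type 2 TAM depleted, at 78.5, 87.6, 117, 88.9 and 52.3 in Type 1 Control and at 74.1, 67.2 and 63.6 in Type 1 TAM depleted tumours. All groups of each kind overlapped, and the Type 2 depletion difference was -0.65 (SE 0.37, adjusted p = 0.376, limma-trend). The class median in Type 2 depletion was -0.64, with 0 of 6 positive, and the 8 ependymal and multiciliated cell markers had a median of -0.33 with 0 called.

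Among the other kinesins, Kif2a is a microtubule depolymerase of growing neurites and spindles. It was at 454, 985, 293 and 729 in Type 2 Control, at 1101, 1187, 861 and 515 in Type 2 TAM depleted, at 823, 716, 835, 1063 and 642 in Type 1 Control and at 1469, 1121 and 1166 in Type 1 TAM depleted tumours. The Type 1 groups did not overlap and the Type 2 groups did. Its Type 2 depletion difference was 0.65 (SE 0.35, adjusted p = 0.357, limma-trend).

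Kif26a and Kif26b belong to an atypical subfamily that lacks ATPase activity. Kif26a was at 67.9, 203, 115 and 142 in Type 2 Control, at 127, 106, 161 and 39.3 in Type 2 TAM depleted, at 85.7, 81.8, 157, 152 and 95.6 in Type 1 Control and at 238, 85.3 and 79.1 in Type 1 TAM depleted tumours. Kif26b was at 172, 103, 383 and 126, at 170, 520, 151 and 207, at 210, 283, 276, 458 and 291 and at 193, 269 and 255 in the same order of groups. Both overlapped between all groups of each kind, with Type 2 depletion differences of -0.34 (SE 0.47, adjusted p = 0.717) and 0.42 (SE 0.42, adjusted p = 0.626) by limma-trend.

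Kif12, Kif28 and Kif19b had higher medians in the libraries with high receptor reads. Their medians were 36.2, 52.5 and 36.2 normalized counts in the 9 high-set libraries and 3.0, 9.5 and 5.2 in the 7 low-set libraries. Of all kinesins, only Kif27 was higher in every high-set library than in any low-set library (63.2 to 132 against 27.5 to 42.4), which is 2.44% of the family against 16.5% of all genes. The part of the receptor background in the values of these kinesins was not tested.

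By Pearson correlation of log2(normalized count + 1) over the 16 libraries, given as a description, the genes most like Kif5c included Nell2, Ppp2r2c, Cnr1 and Sgtb (each 0.96). Within its class the likeness to Kif5c ranged from 0.54 for Kif17 to 0.93 for Kif3c. The genes most like Kif14, the mitotic kinesin with the smallest p in Type 2 depletion, were Chek2 and Ndc80 (both 0.96), followed by Shcbp1, Lockd and Kif23 (each 0.95). Likeness to Kif14 within the mitotic class ranged from 0.71 for Kif22 to 0.95 for Kif23. The libraries behind these values share their groups, depth differences and receptor background.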

How the data were processed

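RNA was measured in 16 tumour libraries made with the SMART-Seq v4 kit, per the labels' protocols, which does not mark strand. The submitters' processing notes name the aligner STAR 2.7.8a, the build GRCm38 and DESeq2. Which tool and annotation gave the counts was not given in the sources used here. Log2 values were deposited by the authors, and the data showed them to be variance-stabilised. The design had assumed linear normalized counts, so the values were inverted to normalized counts and to whole reads (100.0% of values whole within 0.05 reads). All results come from the table of all 16 libraries. The other 2 deposited tables, per tumour kind, served only to check the inversion, and 100.0% of the shared reads were equal.

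Genes that reached a normalized count of 10 in at least 3 libraries were analysed with limma-trend (limma 3.58.1, R 4.3.3) on log2(normalized count + 1), which understates the change of low genes, over all 4 groups together, 2-sided, with Benjamini-Hochberg adjustment and a threshold of 0.05. The script was tested on simulated data. Values in every library are given for kinesins past the threshold in any of 5 comparisons and for the 3 members of each class with the largest mean count, and for partner and marker lists the 3 smallest p-values. Other genes named from small counts were chosen after their values were seen. Members and lists were chosen with earlier results of these data known. Alternatives were other pseudocounts, filters, scalings, limma-voom, blocks for replicate number and receptor reads, receptor read sets and leaving out each library. No 2 libraries of the same group agreed within sampling noise (chi-square per degree of freedom 9.07 or above), and pairs across groups were not compared. Positions are from GENCODE vM21, which matched 40 of 41 kinesins. Kif2b was not analysed here, and 1 gene of the likeness comparison is not reported here.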

Additional observations from a re-analysis of the deposited data

How the results depend on the processing

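Counts of kinesins called moved with the processing as follows. In Type 2 depletion (3 called) a filter of 50 gave 5, the receptor read block 9 and the low-receptor libraries alone 0. Over all genes 956 of 26463 were called, against 1378 of 17074, 2635 of 26463 and 0 of 26463 in those settings. Leaving out single libraries gave 1 to 5 kinesins and 100 to 1259 genes. Without Control 3, TAM depleted 1 or TAM depleted 2 only Kif5c was called among kinesins, and without Control 4 or TAM depleted 3 there were 5. The difference of responses (0 called) gave 2 with the receptor read block (Kif1a and Kif5c). Between controls (1 called) quantile scaling gave 3, upper quartile scaling 2, the receptor read block 5 and the high-receptor libraries alone 5. Over all 26463 genes 819 were called between controls, against 1804, 1074, 1226 and 1057 in those settings. Leaving out single libraries gave 1 to 2 there, with Kif1c added without Type 2 Control 1. Type 1 depletion and the TAM depleted comparison gave 0 under every alternative run.

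Kif5c passed in 18 of 19 alternatives of Type 2 depletion (adjusted p from 0.00024 to 0.293, limma), Kif1a in 13 and Kifc2 in 11. Kif5a, not among the 3 called, passed in 6 of its 19 alternatives. Signs turned under the receptor read block for Kif1a (-1.01) and Kif5c (-0.15) in Type 1 depletion and for Kif5c (0.17) between TAM depleted tumours, where the low-receptor libraries gave 0.14. In Type 2 depletion they turned in the high-receptor libraries for Kif11 (0.53), Kif4 (0.081) and Kif26b (-0.54). Leaving out single libraries gave -0.89 to 0.24 for Kif11 (0.048 without Control 2, 0.24 without TAM depleted 2), -1.22 to 0.0039 for Kif4 (highest without TAM depleted 2) and -0.63 to 0.078 for Kif26a (highest without TAM depleted 4). The cause was not tested.

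The replicate number as a block gave 1 kinesin (Kif5c) in Type 2 depletion and left the kinesin counts of the other comparisons as they were. Over all genes it gave 297 in Type 2 depletion, against 956 without it. Between controls it gave 347 genes, against 819, and between TAM depleted tumours 16, against 49. Nothing in the labels says that the numbers pair the samples. After removal of each group mean, same-number correlations were -0.05, -0.16 and 0.37 in Type 1 and -0.67, 0.50, 0.30 and -0.60 in Type 2. Of these, 1 of 7 was the best match of its sample. With so few libraries per group these values cannot show whether samples were paired. Calls over all genes in Type 2 depletion were 627 higher and 329 lower, against 711 and 502 with quantile and 674 and 619 with upper quartile scaling and 653 and 595 with limma-voom. Between controls 819 genes were called, 1804 with quantile scaling and 2343 with limma-voom. Upper quartile scaling moved the median of all genes to -0.41 in Type 2 depletion and to -0.44 in Type 1 depletion.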
